A study of Saccharomyces cerevisiae with 4 samples.

Results

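Histidine synthesis in Saccharomyces cerevisiae is encoded by 7 genes, HIS1 to HIS7. Their transcript levels were measured in D10 Small, a translocant strain, and in the parental strain it derives from, WT San I. The members were taken by systematic name from the probes of the arrays (YER055C, YFR025C, YOR202W, YCL030C, YIL116W, YIL020C and YBR248C), and all 7 were found among 6256 gene probes. The reference gene table of the R64 assembly gives the symbols HIS1 to HIS7 for these names. The samples were 4 biological replicates of D10 Small in Cy3, each set against 1 pool of WT San I RNA in Cy5 on a two-colour oligonucleotide array of its own. Cultures of both were harvested in rich YPD medium at an optical density of 0.4 to 0.5. Kanamycin, an aminoglycoside, was present for D10 Small alone (200 mkg/ml), so strain and drug cannot be told apart. All arrays share 1 dye orientation, so dye and strain cannot be told apart for a single gene either. The pool is 1 control sample, so no test includes the spread of WT San I cultures. The labels do not give the genotype of either strain at the HIS loci.

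Yeast makes histidine from phosphoribosyl pyrophosphate and ATP in a linear pathway. An intermediate step releases AICAR, a compound that enters purine synthesis, so the purine and histidine pathways are linked. The HIS genes lie on several chromosomes and not in an operon. They are known targets of Gcn4, the transcription activator of general amino acid control, and Bas1 with its partner Pho2 activates some of them as well as many ADE genes. In rich medium, cells can also take up histidine through permeases, of which Hip1 has high affinity.

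Every value below is a log2 ratio of D10 Small over the pool, as mean ± SD over the 4 arrays (n = 4), unless a fold or a raw intensity is named. Each array carried 45220 spots, with 7 spots for each gene probe. Gene spots had a median raw intensity of 304 to 444 for D10 Small and of 120.4 to 261 for the pool. Precision is limited by the number of arrays. Of 5794 genes tested, 82.7% passed limma's test at an adjusted p under 0.05, 43.2% as higher and 39.6% as lower, so a call by itself sets a gene apart from few others.

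The histidine genes did not move together in D10 Small. The genes for 4 enzymes that follow each other in the pathway, HIS7, HIS3, HIS5 and HIS2, were higher. HIS5 stood far above the others with 2.21 ± 0.07, a 4.64-fold difference. HIS1, the gene of the first enzyme, and HIS6 were lower by small amounts, -0.20 ± 0.06 and -0.24 ± 0.03. HIS4, whose product acts at 3 places in the pathway, had 0.09 ± 0.11 and was not called. Of the 7 members, 4 were higher and 2 lower with limma, and 6 of 7 passed in all, a share near the 82.7% of all tested genes. The median over the members was 0.35, beside 0.02 over all tested genes. Differences of at least 2-fold with the same threshold were less common, with 6.20% of all tested genes higher by that much, and HIS5 and HIS3 were among them. The 3.05% of tested genes lower by as much held none of the members. All 7 members were above background in both channels on all 4 arrays, so none entered the test through 1 channel alone.

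**Figure D1:**
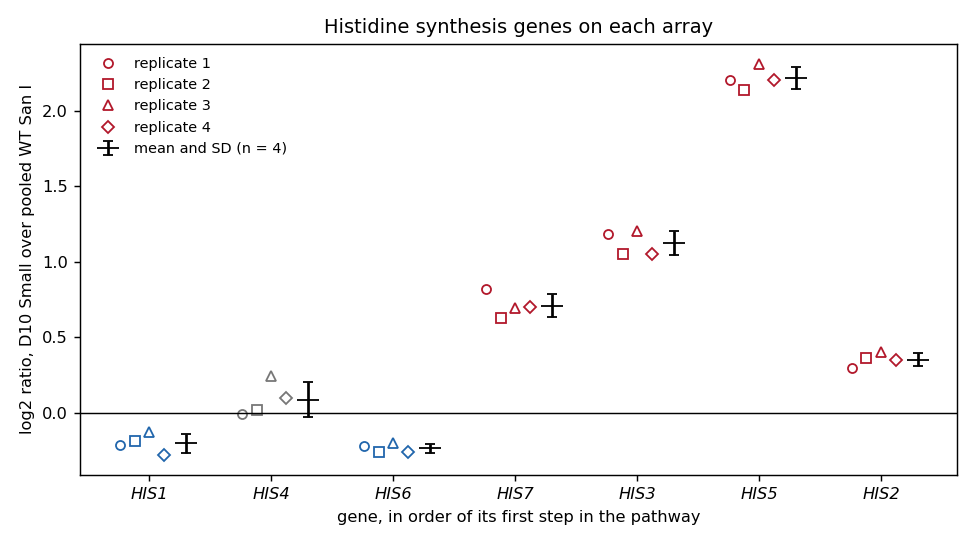
Log2 ratio of D10 Small over pooled WT San I for each histidine gene, in the order of the pathway, with 1 open symbol per array and the mean with SD (n = 4) to the right. Red marks genes called higher, blue lower and grey not called. The HIS7, HIS3, HIS5 and HIS2 symbols lie above 0 on every array, and those of HIS1 and HIS6 below 0.

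HIS1 encodes ATP phosphoribosyltransferase, which commits phosphoribosyl pyrophosphate to histidine and is inhibited by histidine. Its ratios were -0.21, -0.19, -0.13 and -0.28 on the arrays of replicates 1 to 4. All 4 lay below 0, and the mean corresponds to a 1.15-fold lower level in D10 Small, with a limma adjusted p of 0.000807 and a 95% confidence interval from -0.28 to -0.12. Before normalisation the D10 Small channel was the brighter one for HIS1, with a raw mean of 1290 to 1737 against 899 to 1682 in the pool. The median gene spot was also brighter in that channel, and loess sets each ratio relative to genes of like brightness.

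HIS4 encodes an enzyme of 3 activities, which catalyses the second, the third and the last step. Its ratios were -0.01, 0.01, 0.24 and 0.10. The array of replicate 3 was the highest, the arrays of replicates 1 and 2 lay close to 0, and the mean was within the spread of the arrays. The limma adjusted p was 0.114, and the interval from -0.02 to 0.19 leaves room for a difference of up to 1.14-fold. Without replicate 1 HIS4 passed with 0.12 and a limma adjusted p of 0.0422, and over the 4 sets that leave out 1 replicate the adjusted p ran up to 0.468. When arrays were centred on their median without loess the sign turned, to -0.40 with a limma adjusted p of 0.00206. No direction can therefore be given for HIS4 as a level.

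HIS6 encodes the isomerase of the fourth step. Its ratios were -0.22, -0.26, -0.20 and -0.26, all below 0 and close to each other. The level in D10 Small was 1.18-fold lower, with a limma adjusted p of 0.000141 and a 95% confidence interval from -0.31 to -0.17. HIS6 gave raw means of 222 to 341 for D10 Small and of 112 to 235 for the pool, with a local background of at most 23.6 and 21.7. The SD between its spots on 1 array reached 0.30, wider than the SD between arrays. The highest spot SD was wider than the SD between arrays for every member, and that of HIS3 reached 0.31. With median centring HIS6 lay at -0.0033 and did not pass, with a limma adjusted p of 0.946.

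HIS7 encodes imidazole glycerol phosphate synthase, which takes nitrogen from glutamine and releases AICAR. Its ratios were 0.82, 0.63, 0.70 and 0.70, and no array came near 0. The level was 1.64-fold higher in D10 Small, with 0.71 ± 0.08 and a limma adjusted p of 8.71e-07. Its raw mean was 2043 to 2824 for D10 Small and 740.4 to 1390 for the pool.

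HIS3 encodes imidazoleglycerol-phosphate dehydratase and is widely used as a selection marker in yeast. Its ratios were 1.18, 1.05, 1.2 and 1.05, a 2.18-fold difference with 1.12 ± 0.08 and a limma adjusted p of 1.04e-07. The raw mean in the pool lay between 333 and 773, above its local background of at most 23.6, so HIS3 transcript was measured in both strains. In D10 Small it lay between 1391 and 2307, and the raw spot intensities of the channels did not overlap on any of the 4 arrays. The same held for HIS6, which was called lower. The D10 Small channel was the brighter one for the median gene spot too, so this raw separation does not give the direction of a ratio.

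HIS5 encodes histidinol-phosphate aminotransferase. On the arrays of replicates 1 to 4 the ratios were 2.21, 2.14, 2.31 and 2.20. The spread between arrays was small beside the difference, and the limma adjusted p was 5.69e-09, with a 95% confidence interval from 2.13 to 2.30. Before any normalisation, the raw means were 448, 292, 236 and 168 in the pool and 2936, 2545, 2630 and 1779 in D10 Small. HIS5 had rank 49 from the top among the 5794 tested genes. In the authors' deposited table, with its unstated normalisation, HIS5 had 2.26, 2.25, 2.53 and 2.31.

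HIS2 encodes histidinol-phosphate phosphatase, which acts on the product of the HIS5 enzyme. Its ratios were 0.30, 0.36, 0.40 and 0.35, a 1.28-fold higher level with 0.35 ± 0.04. The limma adjusted p was 1.74e-05, and all 4 arrays lay above 0. The raw mean lay between 593 and 844 in D10 Small and between 205 and 448 in the pool.

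**Figure D2:**
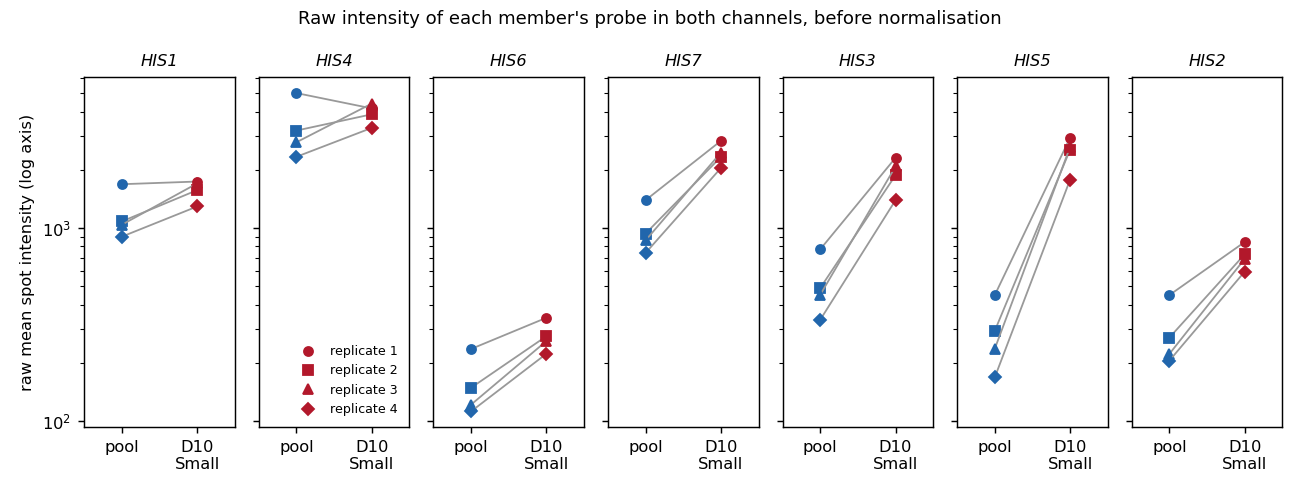
Raw mean spot intensity (log axis) of each member's probe in the pool's channel (blue) and in the D10 Small channel (red), joined for each array. The lines of HIS5 and HIS3 are the steepest, and those of HIS4 and HIS1 the flattest. Probes differ in brightness for reasons of their own, so levels of different genes are not compared.

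From highest to lowest ratio the order was HIS5, HIS3, HIS7, HIS2, HIS4, HIS1 and HIS6. The ranges over the 4 arrays did not overlap for the first 5 of 6 neighbouring pairs. HIS5 exceeded HIS3 by 1.09 ± 0.05, HIS3 exceeded HIS7 by 0.41 ± 0.07 and HIS7 exceeded HIS2 by 0.36 ± 0.11. HIS2 lay 0.26 ± 0.08 above HIS4, and HIS4 lay 0.29 ± 0.10 above HIS1, on all 4 arrays. The exact two-sided sign-flip permutation test gave 0.125 for each of these 5 pairs, the smallest p that 4 arrays allow, and 0.15 adjusted over the 6 pairs. The pairs were set by the order of these same ratios, and the test could not fall below 0.05, so it does not decide the order. HIS1 and HIS6 overlapped, with a difference of 0.03 ± 0.05 in the same direction on 3 of 4 arrays and an exact permutation p of 0.375. With median centring HIS4 fell below HIS1 and HIS6 above both.

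The chromosome arm around HIS4 held mostly lower genes. HIS4 lies on the left arm of chromosome III, which had the lowest median of all 32 arms, -0.86 over 53 tested genes without HIS4, 44 of them lower and 4 higher with limma. Next to it, BIK1, a microtubule-binding protein, had -1.14 ± 0.12 and RRP7, a ribosome biogenesis factor, -1.88 ± 0.14, both called lower. Of the 10 nearest tested genes 8 were lower. FUS1, a gene of mating-cell fusion, was higher with 0.30 ± 0.01, and FRM2 had 0.06 ± 0.06 without a call. HIS4 exceeded 49 of the 53 other tested genes of the arm. Measured against its arm's median on each array, HIS4 stood at 0.89 ± 0.12, with a range of 0.76 to 1.05 and a limma adjusted p of 8.42e-07. The part of the arm in the HIS4 value was not tested.

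The other members lie on arms whose medians were closer to 0. The arm medians were -0.01 for HIS1 on V right, -0.10 for HIS2 on VI right, 0.11 for HIS3 on XV right, 0.21 for HIS7 on II right, and 0.09 for HIS5 and HIS6, both on IX left. Each of these 6 genes kept its direction and its limma call after its arm's median was subtracted. HIS3 then stood at 0.99, HIS7 at 0.49, HIS2 at 0.46 and HIS5 at 2.13, while HIS1 stood at -0.21 and HIS6 at -0.32. Against the arm medians, HIS4 with 0.89 came after HIS5 and HIS3 and before the other members. HIS5 and HIS6 were 2.45 apart although they share an arm.

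**Figure D3:**
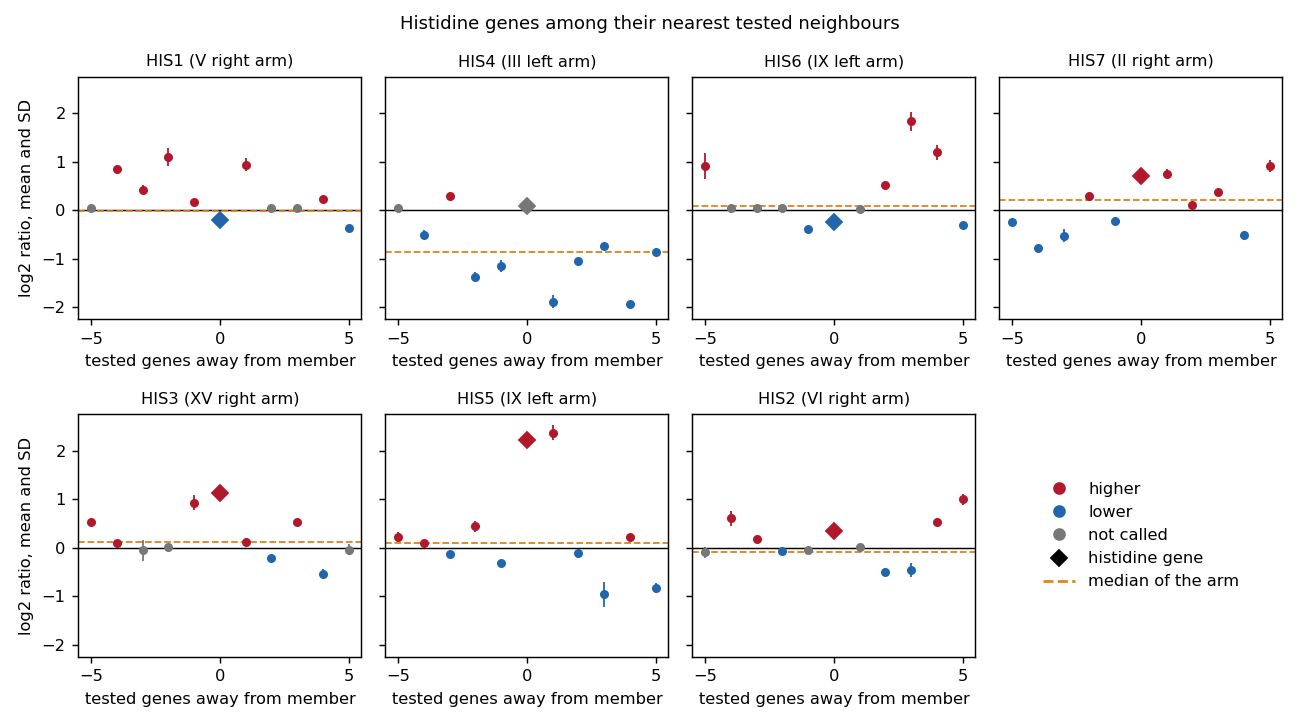
Mean log2 ratio with SD (n = 4 arrays) of each histidine gene (diamond) and its 5 nearest tested genes on either side, in order of systematic name, with the arm's median as a dashed line. HIS4 lies near 0 among genes mostly lower, and HIS5 stands out from its neighbours except PRM5.

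HIS5 had 1 direct neighbour that was also higher, and both direct neighbours of HIS3 were, beside 43.2% of all tested genes. Among the other tested genes of their arms, 80 of 165 were called higher on IX left and 202 of 371 on XV right. PRM5, a membrane protein gene of the cell wall stress response, lies beside HIS5 in the opposite orientation by its systematic name (YIL117C), and had 2.37 ± 0.15 with a limma adjusted p of 2.52e-08. On the other side of HIS5, the nuclear pore gene NUP159 was lower with -0.33 ± 0.03. MRM1, which encodes a methyltransferase of mitochondrial ribosomal RNA, lies beside HIS3 in the opposite orientation (YOR201C) and had 0.92 ± 0.16 with a limma adjusted p of 1.93e-06. YOR203W on the other side of HIS3 was higher with 0.11 ± 0.05 and a limma adjusted p of 0.0128. That ratio equals the median of the arm, 0.11. HIS7 lies beside ARO4, an enzyme at the start of aromatic amino acid synthesis, which had 0.76 ± 0.09, or 0.01 with median centring. ARO4 is named here after its value was seen.

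By Euclidean distance over the 4 ratios, the genes most like HIS5 were RPS14B at 0.175, RIB5 at 0.198 and SSA4 at 0.236, with ratios of 2.27, 2.13 and 2.24. Those most like HIS6, the lowest member, were INP53 at 0.0346, UBA2 at 0.0379 and RBA50 at 0.0409, with ratios between -0.24 and -0.23. The arrays hold 1 contrast, so this likeness is one of level and array noise alone.

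Genes that supply the pathway went both ways. Of the 5 PRS genes, whose products make phosphoribosyl pyrophosphate, 2 were higher and 3 lower with limma. Counts for this and the later lists stand beside 43.2% of all tested genes called higher and 39.6% lower. PRS5 had 0.84 ± 0.01 on XV left, an arm with a median of 0.45, and PRS1 had 0.41 ± 0.10. PRS3 and PRS2 were lower with -0.52 ± 0.13 and -0.50 ± 0.04. The arm medians were 0.31 for PRS3 on VIII left, -0.01 for PRS2 on V right and 0.21 for PRS1 on XI left. With median centring PRS1 turned to -0.22, and PRS3 and PRS2 both moved to -0.27.

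Among 11 genes of purine synthesis, which share precursor and AICAR with histidine, 5 were higher and 3 lower with limma, with a median of 0.10. ADE17 and ADE16 encode the isoenzymes that convert AICAR. ADE17 had ratios of 1.00, 1.06, 0.92 and 1.08, a 2.02-fold higher level with a limma adjusted p of 1.24e-07. ADE16 had -0.02 ± 0.07 and was not called. ADE4, which makes phosphoribosylamine from the shared precursor, was higher with 0.76 ± 0.07, and ADE12 with 0.48 ± 0.05. ADE6 was lower with -1.17 ± 0.07. It lies on VII right, an arm with a median of -0.48.

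Of 8 genes of histidine uptake, storage and use, 7 were tested, with 1 higher, 2 lower and 4 not called with limma. HIP1, the high-affinity histidine permease gene, had ratios of -0.60, -0.61, -0.42 and -0.63, a 1.48-fold lower level with a limma adjusted p of 5.81e-06. HIP1 also lies on VII right, and its mean of -0.56 ± 0.10 was near the arm's median of -0.48. HTS1, the histidyl-tRNA synthetase gene, had 0.03 ± 0.10 and was not called, with an interval from -0.07 to 0.13, but had -0.47 with median centring. Of the vacuolar basic amino acid transporter genes, VBA2 was higher with 0.81 ± 0.13 and VBA1 had -0.0032 ± 0.06 without a call. The ratio of VBA2 was 2.38 in the scanner software's net values. VBA3 was not above background in either channel on any array and was not tested. The DPH genes modify a histidine of elongation factor 2 to diphthamide. DPH1 was lower with -0.38 ± 0.04, and DPH2 and DPH5 had -0.06 ± 0.11 and -0.09 ± 0.14 without a call. With median centring DPH1 had -0.14, DPH2 -0.18 and DPH5 -0.38, which turned their order, and 5 of the 7 tested genes of this list were then lower and 2 higher.

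Of 10 regulators of the histidine genes, 6 were lower, 3 higher and 1 not called in D10 Small. Among all tested genes 39.6% were lower and 43.2% higher, and a list of 10 is too short to set apart from these shares. PCL5, a cyclin that marks Gcn4 for degradation and is itself a Gcn4 target, was highest. Its ratios were 2.44, 2.43, 2.54 and 2.41, a 5.48-fold higher level with a limma adjusted p of 3.60e-09. BAS1 was 2.08-fold higher with 1.06 ± 0.10, while its partner gene PHO2 was 1.68-fold lower with -0.75 ± 0.18. GCN4 had ratios of 0.40, 0.69, 0.78 and 0.84, a 1.60-fold higher transcript level with a limma adjusted p of 3.12e-05. GCN4 is known to be controlled mainly in translation, which these arrays do not measure.

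Upstream of Gcn4, GCN2, the kinase that senses uncharged tRNA, had 0.05 ± 0.03 and was not called. Its activators GCN1 and GCN20 were lower with -0.77 ± 0.13 and -0.88 ± 0.06, as was GCN3, a subunit of the translation factor eIF2B, with -0.44 ± 0.05. The general DNA-binding regulators RAP1 and ABF1 were lower with -0.87 ± 0.10 and -0.89 ± 0.14. GCN2 was the 1 regulator whose call changed with median centring, to 0.29.

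Other amino acid synthesis genes under general control were mostly higher. Of 30 genes listed 29 were tested, with 24 higher, 4 lower and 1 not called with limma, and a median of 0.69. Among all tested genes the share called higher was 43.2%. With median centring 18 genes of the list were higher and 6 lower. The largest ratios belonged to ARG1 of arginine synthesis with 2.96 ± 0.07, LYS1 and LYS20 of lysine synthesis with 2.33 ± 0.11 and 1.92 ± 0.13, and ARO3 of aromatic amino acid synthesis with 1.27 ± 0.10. HIS5 lay between LYS1 and LYS20. ILV3, ILV2 and ILV6 of branched-chain amino acid synthesis and THR4 of threonine synthesis were the lower ones, with ILV3 at -1.03 ± 0.11. ILV6, with -0.44, lies on III left, an arm with a median of -0.86. THR4, with -0.98, lies on III right, with a median of -0.31. ARG1 lies on XV left, the arm with the highest median, 0.45. The part of the arms in these values was not tested. ARG4 was not above background in either channel on any array and was not tested.

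**Figure D4:**
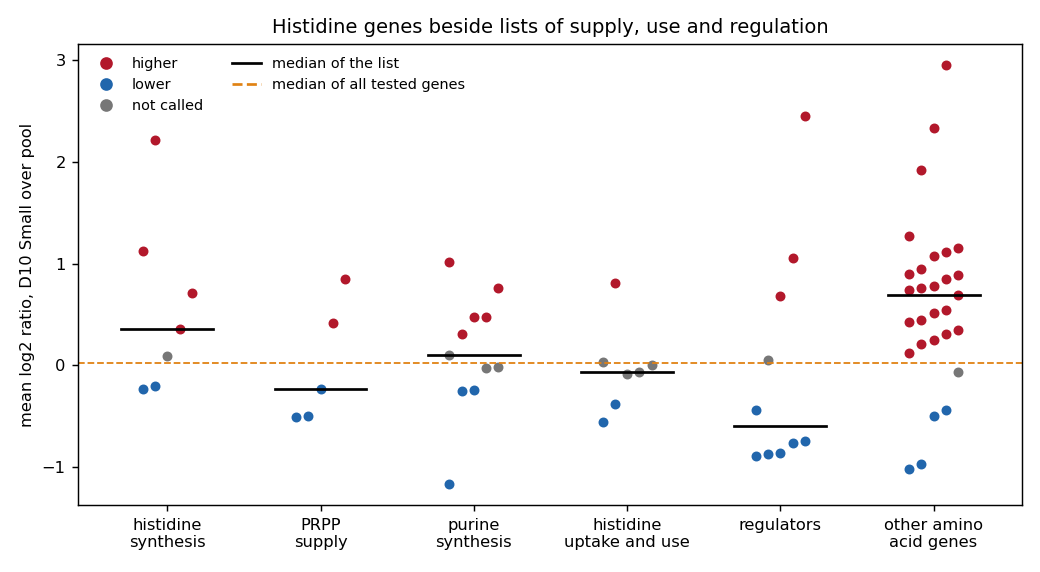
Mean log2 ratio of each tested gene in the histidine family and in 5 lists around it, with the list's median as a black bar and the median of all tested genes as a dashed line. The histidine genes run from -0.24 to 2.21, and the other amino acid genes have the highest median, 0.69.

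The ratios of HIS2, HIS3, HIS5 and HIS7 stayed positive and past the threshold under all 14 other settings. HIS5 ranged from 2.13 to 2.36, HIS3 from 0.99 to 1.2, HIS7 from 0.49 to 0.74 and HIS2 from 0.33 to 0.57. HIS1 was below 0 under all 14, from -0.26 to -0.16. Neither HIS1 nor HIS6 passed a test against a minimum fold of 1.2, which left 4 members higher and 0 lower. That test and the other filters on dim probes reuse the same ratios, so they could not change a sign. The sets that leave out 1 replicate are parts of the same 4 arrays.

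**Figure D5:**
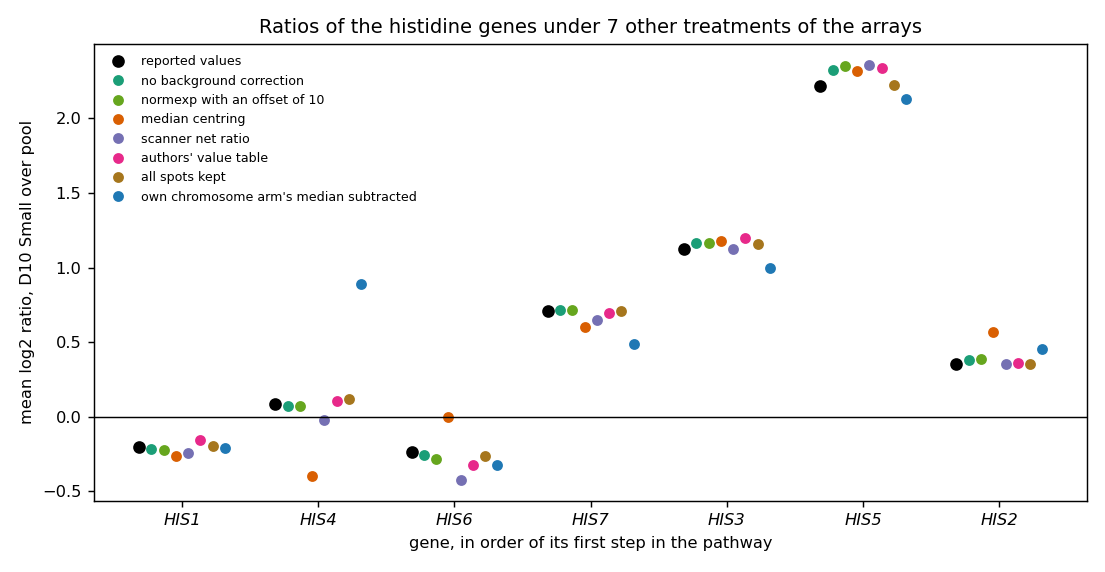
Mean log2 ratio of each histidine gene as reported (black) and under 7 other treatments of the same arrays. Every gene but HIS4 keeps its sign, with HIS6 at -0.0033 under median centring. HIS4 runs from -0.40 with median centring to 0.89 with its arm's median subtracted.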

How the data were processed

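The members and gene lists were chosen with earlier results of these data known. Amplified cRNA was made from 250 ng of RNA, per the labels. Per the file headers, the deposited scanner files hold linear spot intensity and local background for each channel, and a net log2 ratio for which the pool's channel was rescaled in an unnamed way. The scanner software is not stated. In the authors' value table the deposited log2 ratios have column medians of -0.000293, -0.00570, -0.00121 and 0.00265. Pearson's r with the ratios computed here was 0.965 to 0.972 across genes, at slopes of 1.17 to 1.26. Direction and centre follow from this, while the normalisation of that table stays unknown.

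Mean intensities were corrected with normexp at an offset of 50, which draws dim ratios toward 0, and normalised by loess in limma 3.58.1 with controls at weight 0. Outlying spots, more than 1.42 interquartile ranges outside the quartiles of their probe, were dropped. They were 6.47% to 8.77% of spots per array, and 182 of 196 member spots were kept. A probe was above background when most spots exceeded the negative controls' mean by 2.6 SD. Genes that passed this in 1 or both channels on 3 or more arrays, 5794 of 6256, were tested against 0 with lmFit and eBayes, with Benjamini-Hochberg adjustment. Symbols came from the R64 gene table, with 5756 probes matched, and arms and neighbours from systematic names. Genes named are all members, up to 4 called genes of largest ratio per list, all regulators and genes of histidine uptake and use, the nearest neighbours of HIS3, HIS4 and HIS5, and the 3 genes most like the highest and the lowest member. Where more are named, their values had been seen. A listed gene of amino acid synthesis is not reported here. The planned search of promoters for a Gcn4 motif was not run, as no promoter sequences were used here.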

Additional observations from a re-analysis of the deposited data

Results flagged for a closer look

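None of the 7 histidine genes had an array far from the other 3. Among 69 genes examined, the members and the list genes that were tested, 5 had 1 array whose gap to the nearest other array took up more of the range than Dixon's 95% critical value. Chance gives about 1 in 20. Replicate 4 was apart for PRS1 with 0.26 and for ARO3 with 1.13. Replicate 3 was apart for PRS4 with -0.13, HIP1 with -0.42 and LEU4 with 1.03. The gap took from 0.836 of the range for HIP1 to 0.919 for LEU4.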

How the results depend on the processing

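Cultures of D10 Small and WT San I could not be paired because the arrays hold 1 group against 1 pool. Median centring in place of loess turned HIS4 to -0.40 (limma adjusted p of 0.00206), took HIS6 to -0.0033 (limma adjusted p of 0.946) and raised the members' median to 0.57. The cause was not tested. Testing for a fold above 1.2 left HIS1 at -0.20 and HIS6 at -0.24, both with a limma adjusted p of 1, so that 0 members were lower. It called 1425 genes higher and 1151 lower over all, against 2501 and 2292. HIS4 passed without replicate 1 (0.12) and with its arm's median subtracted (0.89). Leaving out 1 replicate at a time gave HIS4 between 0.034 and 0.12. No other member changed its call, and no other count moved by over 1.5 times, under no background correction, an offset of 10, the scanner's net ratio, the authors' value table, either filter on dim probes or all spots kept. In the lists, median centring moved the PRS genes to 1 higher and the uptake genes to 2 higher and 5 lower. It left 18 of the other amino acid genes higher and 6 lower, and the minimum fold left 1 purine gene lower. The error of the pool and the dye effects of single genes were not measured.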
